A study of Mus musculus with 26 samples.

Results

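Hes1, Hes5, Hey1, Hey2 and Heyl encode repressors of the basic helix-loop-helix (bHLH) family, and Nrarp encodes an ankyrin-repeat protein that lowers Notch signalling. These 6 genes were chosen by name, as known transcriptional targets of the Notch pathway, and with earlier results of these data known. The other gene lists below were chosen in the same way, so counts called within a list describe it and do not test it. The 6 are among 48709 genes in the RNA data. They were followed in cultured cochleae of mice at postnatal day 1. Supporting cells, the non-sensory cells around the hair cells, were sorted after exposure to DAPT, which blocks the protease gamma-secretase that releases the active part of the Notch receptor, or after exposure to its solvent DMSO. At 24 h, RNA was measured in 3 DMSO and 3 DAPT libraries of Lfng-GFP+ cells. At 48 h, cells were sorted for Lfng-CreER/TdT, alone or with Atoh1-GFP. Control cells (DMSO, TdT+ without Atoh1-GFP) gave 2 RNA libraries, nonpermissive cells (DAPT, TdT+ without Atoh1-GFP) gave 3, and permissive cells (DAPT, TdT+ with Atoh1-GFP) gave 3. Open chromatin (ATAC) and the histone mark H3K27ac, found at active promoters and enhancers, were profiled at 48 h in 2 libraries of each of these groups.

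Lfng drives the reporter at 24 h and the Cre recombinase at 48 h, and Lfng itself fell with DAPT at 24 h (200.8 against 976.6 CPM, log2 fold change −2.28 ± 0.18, edgeR adjusted p = 3.76e-05), so the gate is a Notch pathway gene. The Atoh1 reporter separated the DAPT groups at 48 h, so levels of Atoh1 follow from the sort. The total per RNA library was 10666000 to 13158859 counts for the 24 h set and 2165340 to 4896371 for the 48 h set, with Spearman correlations between replicates of 0.959 to 0.966 and 0.904 to 0.919. The labels do not say whether replicates came from separate cultures or animals, so p-values measure the spread between these libraries, which may be technical. The times differ in sort and in library kit and were not tested against each other. A list of 12 supporting cell markers summed to 7483 CPM or more in every library except the permissive ones, which held 1090 to 1212 CPM. At 24 h these markers went from 13981 to 15532 CPM with DMSO to 8184 to 10232 CPM with DAPT, with 11 of 12 falling. Hair cell markers (12 genes) summed to 1815 to 2198 CPM with DMSO and 3912 to 7122 CPM with DAPT, to 180.3 to 399.0 CPM over control and nonpermissive libraries, and to 5289 to 7285 CPM in permissive ones. Mesenchyme markers (10 genes) summed to 580.1 CPM in control 1 and 2757 CPM in control 2. The part of these other cells in the results was not tested.

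Notch receptors are cut after they bind ligands of a neighbouring cell. The released receptor domain joins the DNA-binding protein RBPJ, and together they switch on Hes and Hey genes. In the cochlea these repressors are known to hold back Atoh1, the factor that starts hair cell formation, and so keep supporting cells from becoming hair cells. Nrarp binds the same complex and limits it.

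On GRCm38.p6, Hes1 spans chr16:30065357-30067796, Hes5 chr4:154960626-154962372, Hey1 chr3:8663359-8667038, Hey2 chr10:30832359-30842783, Heyl chr4:123233556-123249870 and Nrarp chr2:25180758-25183339. The RefSeq genes LOC115489673 and Gm51763 overlap Hey1 and Hey2. Whether the counting used strand is not given in the sources used here, so reads from an overlapping pair cannot be told apart.

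Sequence upstream of the start site was available for 3 of the 6 genes (Hes5, Hey2 and Nrarp, RefSeq, GRCm38.p6). The 250 bases before each start site are printed because the data below hold open chromatin there, with the core RBPJ motif GTGGGAA, or TTCCCAC on the other strand, in capitals. The Hes5 stretch is chr4:154960673-154960922 (plus strand), that of Hey2 is chr10:30842784-30843033 (minus strand), and that of Nrarp is chr2:25180508-25180757 (plus strand).
Hes5: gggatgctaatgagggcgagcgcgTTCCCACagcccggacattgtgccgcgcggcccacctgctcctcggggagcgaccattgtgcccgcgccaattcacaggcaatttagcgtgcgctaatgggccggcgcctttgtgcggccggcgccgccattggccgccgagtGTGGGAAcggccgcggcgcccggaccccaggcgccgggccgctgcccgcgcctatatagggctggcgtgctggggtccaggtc
Hey2: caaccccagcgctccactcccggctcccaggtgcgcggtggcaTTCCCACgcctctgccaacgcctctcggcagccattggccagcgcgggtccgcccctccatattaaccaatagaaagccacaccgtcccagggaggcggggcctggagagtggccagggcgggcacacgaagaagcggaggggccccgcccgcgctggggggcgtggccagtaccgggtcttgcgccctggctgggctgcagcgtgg
Nrarp: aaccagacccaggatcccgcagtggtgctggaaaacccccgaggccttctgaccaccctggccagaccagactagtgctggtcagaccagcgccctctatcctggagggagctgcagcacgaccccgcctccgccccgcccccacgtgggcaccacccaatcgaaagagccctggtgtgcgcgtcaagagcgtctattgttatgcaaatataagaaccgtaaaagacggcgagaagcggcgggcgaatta

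The Hes5 stretch held 2 matches, beginning 226 and 83 bases before the start site. The Hey2 stretch held 1, beginning 207 bases before its start site, and the Nrarp stretch held none of these letters. For Hes5 the start site used is that of the promoter entry, chr4:154960923. It lies inside the Hes5 span given above, as do the printed Hes5 stretch and both of its matches. Of 32851 RefSeq promoters, 5.42% held at least 1 match in the same window and 0.161% held at least 2. The N-box, a site bound by Hes proteins (CACNAG, or CTNGTG on the other strand), was found at 2 places in the Nrarp stretch and not in the stretches of Hes5 and Hey2, against 36.7% of promoters with at least 1. A match is a run of letters and does not show binding.

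At 24 h all 6 genes were lower with DAPT, and for each of them every DAPT library lay below every DMSO library. Of the 15174 genes tested 14.2% fell, and the groups did not overlap for 42.3% of them in either direction. The median log2 fold change of the 6 was −3.44, against 0.01 over all genes. Levels below are CPM (counts scaled to a common library size, after TMM) in each library. In bulk RNA, fewer cells that express a gene and less of its RNA per cell cannot be told apart.

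Hes5, the bHLH repressor with the most transcript in DMSO cells, stood at 1848, 1551 and 1725 CPM in the DMSO libraries and at 9.54, 3.70 and 5.71 CPM in the DAPT libraries. It fell 273-fold (log2 fold change −8.09 ± 0.31, edgeR adjusted p = 1.35e-06). That drop was the largest of the 6. Hes1, the family member also known for its oscillating expression in progenitor cells, stood at 300.7, 196.7 and 231.5 CPM with DMSO and at 26.4, 23.6 and 30.5 CPM with DAPT, a 9.06-fold fall (−3.18 ± 0.17, adjusted p = 5.59e-06).

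Among the Hey genes, Heyl stood at 275.4, 250.3 and 251.4 CPM with DMSO and at 18.4, 25.8 and 15.1 CPM with DAPT, a 13.03-fold fall (log2 fold change −3.70 ± 0.18, edgeR adjusted p = 3.94e-06). Hey1 stood at 541.7, 508.7 and 588.8 CPM with DMSO and at 79.5, 83.6 and 103.5 CPM with DAPT, a 6.15-fold fall (−2.62 ± 0.12, adjusted p = 3.47e-06). Hey2, which is known to be high in pillar cells, moved least: 126.0, 113.9 and 136.4 CPM with DMSO against 45.8, 40.4 and 58.3 CPM with DAPT, a 2.61-fold fall (−1.38 ± 0.14, adjusted p = 0.000167). The Hey genes thus kept more of their transcript than Hes5, with Hey1 still at 79.5 CPM or more in each DAPT library.

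Nrarp, the feedback inhibitor, stood at 209.9, 157.0 and 180.9 CPM with DMSO and at 11.3, 11.3 and 10.1 CPM with DAPT. Its 16.7-fold fall had the smallest adjusted p of the 6 (log2 fold change −4.06 ± 0.13, edgeR adjusted p = 8.05e-07). The DAPT libraries were nearly level with each other.

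**Figure D1:**
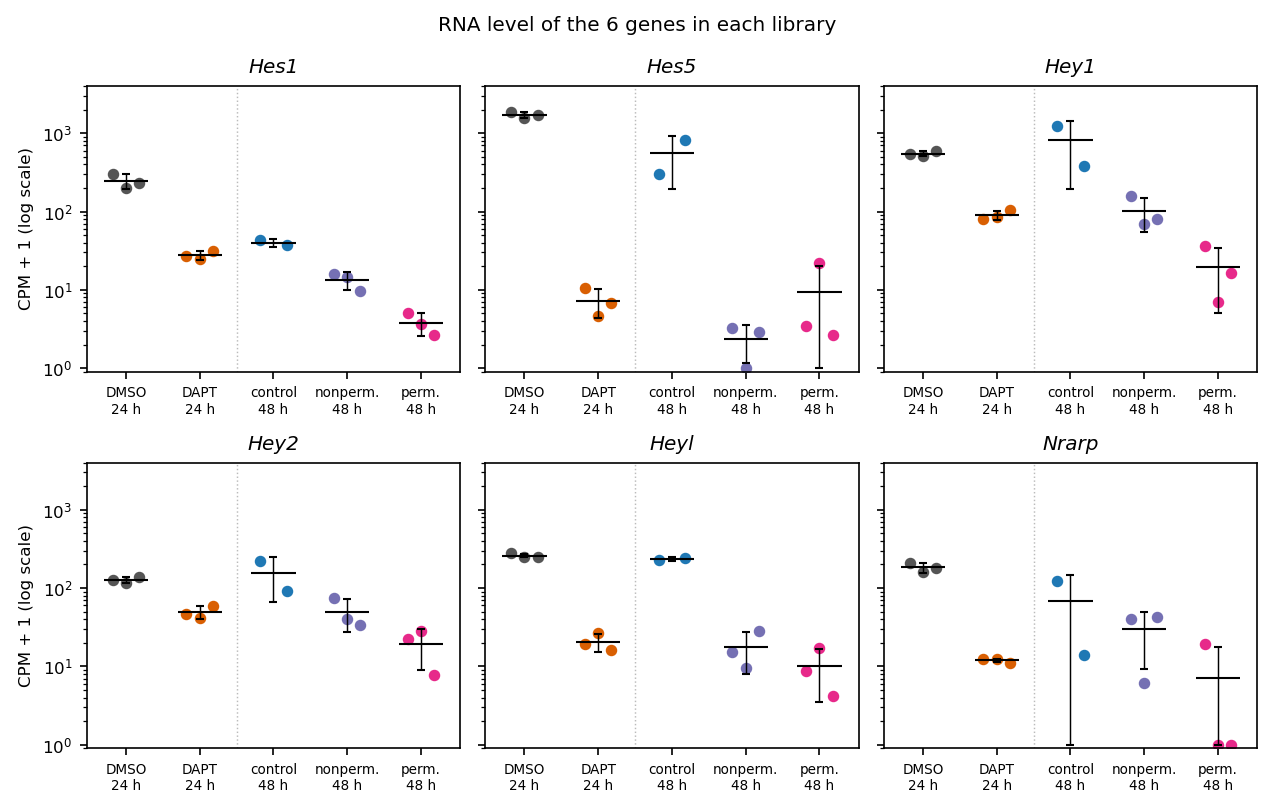
CPM + 1 of each gene on a log axis, 1 point per RNA library, with the group mean (line) and SD (bar, cut at 0 CPM). DMSO and DAPT points are apart in all 6 panels at 24 h, and in the Nrarp panel the 48 h groups overlap, with 2 permissive libraries at 0.

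TPM, the deposited transcript level that corrects for gene length, put the 6 genes in order within a group. In DMSO cells the order was Hes5 (3138 ± 240 TPM, SD, n = 3), Hey1 (503.9 ± 27.1), Hes1 (362.1 ± 68.5), Nrarp (142.9 ± 19.0), Heyl (117.5 ± 3.45) and Hey2 (99.6 ± 8.13), and no neighbours in this order overlapped in their library values. In DAPT cells the order was Hey1 (81.3 ± 11.6 TPM), Hes1 (40.5 ± 6.90), Hey2 (37.7 ± 6.91), Hes5 (11.1 ± 4.98), Heyl (8.51 ± 2.45) and Nrarp (8.43 ± 0.62). Hes1 and Hey2 overlapped there, as did Hes5, Heyl and Nrarp. Hes5 went from the first place to the fourth.

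The summed TPM of the 5 bHLH genes was 4221 ± 320 in DMSO and 179.1 ± 23.0 in DAPT libraries (SD, n = 3 each). Hes5 made up 74.3% ± 0.30 of this sum with DMSO and 6.22% ± 2.85 with DAPT. Hey1 went from 11.97% ± 0.90 to 45.4% ± 2.28, Hes1 from 8.53% ± 0.98 to 22.5% ± 0.92, and Hey2 from 2.36% ± 0.18 to 20.9% ± 1.15. Heyl went from 2.79% ± 0.20 to 4.91% ± 1.99. None of the 5 shares overlapped between the groups. A share can grow while the level falls, as it did for all but Hes5 here.

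**Figure D2:**
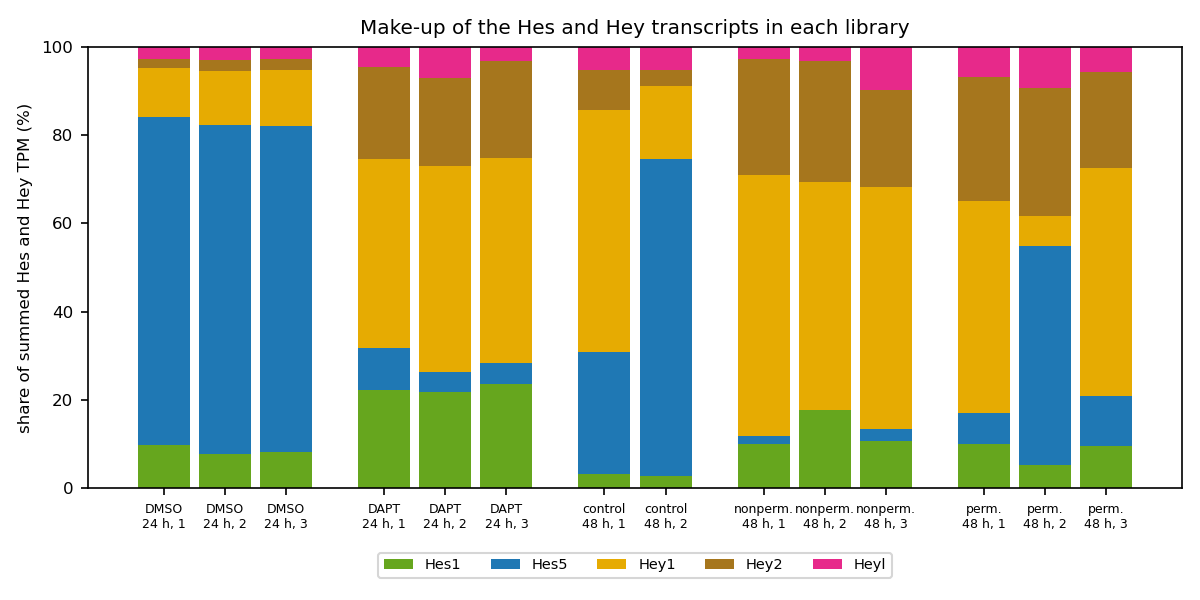
Stacked bars give the percent of summed Hes and Hey TPM held by each of the 5 bHLH genes in every RNA library. Hes5 (blue) fills about 74% of each DMSO bar and at most 9.50% of each DAPT bar, and the 48 h control bars differ from each other, with 27.5% and 72.0% Hes5.

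At 48 h permissive cells were set against control cells, to ask how the genes stand in DAPT-treated supporting cells that had turned on Atoh1-GFP. The 5 bHLH genes fell and Nrarp did not pass the test, where 7.28% of 13411 genes fell. The control libraries differed from each other: Hes5 stood at 297.7 CPM in control 1 and 812.8 CPM in control 2, while Hey1 stood at 1249 and 374.9 CPM, Hey2 at 220.8 and 91.6 CPM and Nrarp at 121.6 and 12.8 CPM. Control 1 was thus higher for Hey1, Hey2 and Nrarp and control 2 for Hes5. Heyl (226.3 and 242.8 CPM) and Hes1 (41.9 and 35.9 CPM) differed less.

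In permissive cells Hes5 stood at 2.48, 21.1 and 1.62 CPM, a 66.4-fold fall from control (log2 fold change −6.05 ± 0.96, edgeR adjusted p = 0.00104). The second permissive library was the high one, and without it the log2 fold change was −8.01; without control 2 it was −5.23. Hes1 stood at 4.13, 2.68 and 1.62 CPM (−3.74 ± 0.65, adjusted p = 0.00186), below all control and all nonpermissive libraries. These levels rest on few reads, 20, 8 and 4 counts of Hes1 in the 3 libraries.

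Hey1 stood at 34.9, 6.02 and 15.4 CPM in permissive cells (log2 fold change −5.42 ± 0.74, edgeR adjusted p = 0.00039), and its fall ranged from −4.29 without control 1 to −6.30 without permissive 1. Without control 2 it was −6.12. Heyl stood at 7.84, 16.1 and 3.23 CPM (−4.68 ± 0.65, adjusted p = 0.000444), and at −5.35 without permissive 2. Hey2 stood at 21.5, 27.1 and 6.87 CPM (−3.07 ± 0.62, adjusted p = 0.00481). The Hey2 call was lost without control 1, where its log2 fold change was −2.29 (adjusted p = 0.0655). All 5 bHLH genes were lower in every permissive library than in either control library, as 40.6% of genes did not overlap in either direction.

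Nrarp stood at 18.2, 0 and 0 CPM in permissive cells. The log2 fold change was −3.39 ± 1.37 (edgeR adjusted p = 0.130), and the groups overlapped, since control 2 lay under permissive 1. Without permissive 1, Nrarp was at −10.81 (adjusted p = 0.00239), where the other 2 permissive libraries hold 0 counts. Without control 1 it was at −1.001, and with the replicate block at −4.07 (edgeR adjusted p = 0.0114). The limit that a count of 0 allows, 3 counts, was 1.004 CPM in permissive 2 and 1.213 CPM in permissive 3, for counting error only.

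Nonpermissive cells had met DAPT and carried no Atoh1-GFP. In them 2 of the 6 genes fell against control, Hes5 and Heyl, where 0.127% of 13411 genes fell (17 genes). Hes5 stood at 2.23, 0 and 1.92 CPM, 8, 0 and 6 counts, and fell 349-fold (log2 fold change −8.45 ± 1.10, edgeR adjusted p = 0.00647). Heyl stood at 14.2, 8.56 and 27.5 CPM (−3.79 ± 0.63, adjusted p = 0.0267). The Hes5 call was lost without nonpermissive 3 (adjusted p = 0.0559), and the Heyl call was lost without any single control or nonpermissive library (adjusted p = 0.0632 to 0.139). Without control 2 Hes5 was at −7.61.

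The other 4 genes did not pass the edgeR test in nonpermissive cells. Hey1 stood at 156.1, 68.5 and 78.4 CPM (log2 fold change −3.00 ± 0.67, edgeR adjusted p = 0.139), with every nonpermissive library below both control libraries. Hey1 passed with the replicate block (−2.77, edgeR adjusted p = 0.0118) and with DESeq2 (adjusted p = 0.00167). In edgeR it also passed with only the 2 groups compared (adjusted p = 0.0293) and without permissive 1 (−3.03, 0.0449). Without the count filter its log2 fold change hardly moved (−3.02) and its edgeR adjusted p was 1.37e-06, but calls over all genes rose there too. Hey1 was at −1.89 without control 1 and −3.68 without control 2. Hes1 stood at 15.1, 13.7 and 8.64 CPM (−1.64 ± 0.61, adjusted p = 0.524), also with no overlap, as for 20.5% of genes. Hey2 stood at 73.7, 39.4 and 33.0 CPM (−1.68 ± 0.60, adjusted p = 0.488), again below both control libraries. Nrarp stood at 39.1, 5.14 and 41.6 CPM (−1.22 ± 1.31, adjusted p = 0.936), between the control values in 2 libraries and below them in 1. Without control 1 the Nrarp difference turned to 1.16, and that of Hey2 was −0.91.

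Permissive and nonpermissive cells shared the drug and differed in the Atoh1 reporter. Hes1 (log2 fold change −2.10 ± 0.60, edgeR adjusted p = 0.032) and Hey1 (−2.41 ± 0.63, adjusted p = 0.0219) fell in permissive cells, where 6.35% of genes fell. With same-numbered libraries taken as pairs the count was 4, with Hey2 (−1.46, edgeR adjusted p = 0.0432) and Nrarp (−3.17, adjusted p = 0.0414) added. That pairing rests on correlations of 0.58 for number 1 and of 0.15 and 0.13 for numbers 2 and 3. Unpaired, Hey2 was at −1.39 ± 0.56 (edgeR adjusted p = 0.128) and Nrarp at −2.17 ± 1.26 (adjusted p = 0.320). Hes1, Hey1 and Hey2 were lower in each permissive library than in each nonpermissive one, as 30.1% of genes did not overlap in either direction.

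Both calls depended on single libraries. The Hes1 call was lost without control 1, nonpermissive 1, nonpermissive 2, permissive 2 or permissive 3 (adjusted p = 0.0544 to 0.0983). The Hey1 call was lost without nonpermissive 1, permissive 2 or permissive 3 (0.0603 to 0.0856), and Hey1 was at −3.27 without permissive 1. Hes5 did not pass (2.39 ± 0.96, adjusted p = 0.125) and overlapped, and its difference was 0.43 without permissive 2. Heyl did not pass (−0.90 ± 0.57, adjusted p = 0.369). The 48 h comparisons share control, nonpermissive or permissive libraries, so their values are set side by side and are not independent.

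**Figure D3:**
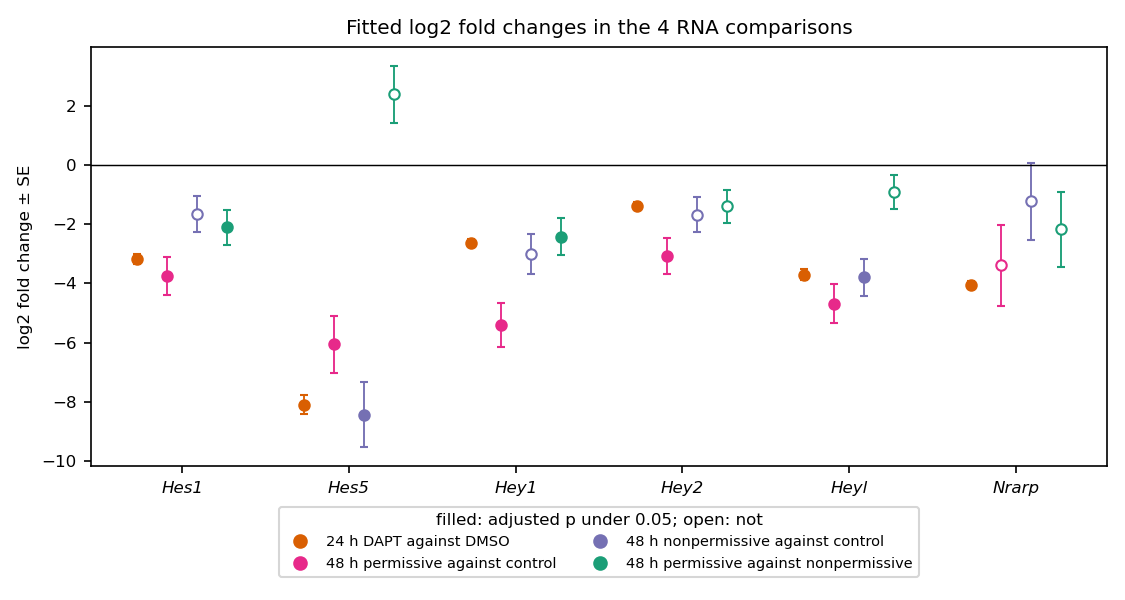
Log2 fold change ± SE (edgeR) of each gene in the 4 RNA comparisons; filled points have an adjusted p under 0.05. The 24 h bars are short, the 48 h bars are longer, and Hes5 in permissive against nonpermissive cells (2.39) is the only point above 0.

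By TPM, Hey1 led in nonpermissive cells (79.3 ± 64.8 TPM, SD, n = 3) and Hes5 was last (2.35 ± 2.28 TPM), with Hey2 (35.5 ± 28.5), Nrarp (20.8 ± 16.9), Hes1 (15.9 ± 8.89) and Heyl (6.04 ± 3.41) between them and only Hes1 and Heyl apart among neighbours. In control cells Hes5 (857.9 ± 380) and Hey1 (717.4 ± 653, n = 2) overlapped at the top, above Hey2 (126.0 ± 96.9), Heyl (95.9 ± 19.1), Nrarp (56.7 ± 69.1) and Hes1 (55.3 ± 18.8), which overlapped with their neighbours. In permissive cells Hey1 (15.8 ± 16.4), Hey2 (12.6 ± 8.01), Hes5 (10.2 ± 11.5), Nrarp (5.60 ± 9.69), Hes1 (3.82 ± 2.91) and Heyl (3.46 ± 2.11) all overlapped with their neighbours. The summed bHLH TPM was 1853 ± 408 in control, 139.1 ± 105 in nonpermissive and 45.9 ± 26.4 in permissive libraries. Hey1 held 55.2% ± 3.80 of it in nonpermissive cells. Hes5 held 0% to 2.79% in nonpermissive libraries, and 49.6% in permissive 2.

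The summed level of markers listed for vascular mural cells was lower where these genes were lower. The 10 pericyte and smooth muscle markers summed to 269.0 to 345.0 CPM with DMSO, 37.4 to 49.5 CPM with DAPT, 192.6 to 246.5 CPM in control, 16.6 to 78.1 CPM in nonpermissive and 6.02 to 31.1 CPM in permissive libraries. Most of that sum was Pdgfrb and Notch3, which is also on the Notch pathway list, so the sum is not a measure of mural cells alone. At 24 h 4 of 8 tested markers fell and 1 rose. Against control at 48 h, 2 of 5 tested fell in permissive and 0 in nonpermissive cells. Of the contractile markers, Acta2 and Des were at 0 to 2.85 CPM and 0 to 0.81 CPM over all 14 libraries. Myh11 reached 1.82 CPM (DMSO 2) and Tagln 10.2 CPM (nonpermissive 3). The other listed markers Rgs5, Cspg4, Abcc9 and Kcnj8 reached 10.6, 6.28, 6.32 and 2.32 CPM in their highest library. Heyl is also known from mural cells, and the part of these cells in its fall was not tested. Endothelial markers (10 genes), which go with Hey1 and Hey2 in vessels, summed to 23.2 to 54.8 CPM in control, 122.2 to 294.7 CPM in nonpermissive and 57.4 to 159.7 CPM in permissive libraries. From nonpermissive to permissive cells mesenchyme markers (10 genes) went from 1392 to 3420 CPM to 228.6 to 691.0 CPM, and Schwann and satellite glia markers (8 genes) from 496.8 to 730.9 CPM to 99.7 to 273.8 CPM. Their part in the results was not tested.

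Beyond these 6, 7 other genes of the Hes family were listed. Hes2, Hes3, Hes7 and Helt did not reach the count filter. Hes6, which opposes Hes1 and favours differentiation, went the other way from the 6: 1383 CPM with DAPT against 107.6 CPM with DMSO (log2 fold change 3.68 ± 0.09, edgeR adjusted p = 4.55e-07), and 254.9, 44.3 and 6.89 CPM in permissive, nonpermissive and control cells. It rose in permissive cells against control (5.21 ± 0.63, adjusted p = 0.000211) and against nonpermissive cells (2.52 ± 0.46, adjusted p = 0.00269). Bhlhe40 fell at 24 h (3.29 against 11.8 CPM, −1.83 ± 0.54, adjusted p = 0.0367), a call lost without DMSO 1, DMSO 3 or any DAPT library, with −0.97 without DMSO 3. It also fell in permissive cells against control (−3.34 ± 0.54, adjusted p = 0.00125). Bhlhe41 passed no test.

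Of 44 other Notch pathway genes listed, 43 were tested at 24 h. There 7 rose (11.5% of all genes rose) and 10 fell. The rises were led by the ligands Dll3 (224.1 against 9.83 CPM, log2 fold change 4.51 ± 0.15, edgeR adjusted p = 8.05e-07), Dll1 (107.3 against 8.60 CPM, 3.64 ± 0.18) and Dlk2 (486.4 against 74.9 CPM, 2.70 ± 0.12). The falls were led by the receptor Notch3 (28.9 against 171.2 CPM, −2.57 ± 0.14), Lfng, and the receptor Notch1 (136.9 against 320.1 CPM, −1.23 ± 0.13). The list's median was −0.08.

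In permissive cells against control, 6 of 42 tested Notch pathway genes rose (5.72% of all genes rose) and 8 fell, 5 without control 2. Dll1 (93.6 CPM) and Dll3 (33.9 CPM) were at 0 counts in both control libraries, and Dlk2 stood at 295.1 against 0.47 CPM. Notch3 (3.64 against 147.5 CPM, log2 fold change −5.34 ± 0.78, edgeR adjusted p = 0.000611), the ligand Jag1 (40.7 against 429.1 CPM, −3.40 ± 0.41, adjusted p = 0.000211) and Notch2 (1.34 against 14.1 CPM, −3.36 ± 1.02, adjusted p = 0.0437) fell most. The Notch2 call was lost with the replicate block (−3.67, edgeR adjusted p = 0.0679), without control 2 and without any permissive library, and its log2 fold change was −2.08 without control 2 and −2.92 without permissive 2.

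In nonpermissive cells against control 1 of the 42 rose, Dlk2 (18.3 against 0.47 CPM, edgeR adjusted p = 0.0391), where 0.0671% of all genes rose, and 0 fell; the Dlk2 call was lost without control 1, control 2, nonpermissive 1 or nonpermissive 3, and was at 4.35 without nonpermissive 3. Against nonpermissive cells, 4 rose in permissive cells (6.78% of all genes rose) and 6 fell, 3 without nonpermissive 1 or without permissive 2. The rises there included Dll3, Dlk2 and the ligand Jag2 (368.5 against 23.1 CPM). The falls included Notch3, Jag1 and Dtx4, an E3 ligase of the pathway (5.04 against 35.2 CPM, −2.76 ± 0.68, edgeR adjusted p = 0.0148, lost without nonpermissive 1 or permissive 2, and −3.61 without permissive 1).

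Hair cell transcription factors rose at 24 h. There Atoh1 was at 70.9 ± 7.55 CPM in DMSO and 675.6 ± 38.1 CPM in DAPT libraries (SD, n = 3 per group, log2 fold change 3.25 ± 0.11, edgeR adjusted p = 8.05e-07). Pou4f3, needed for hair cell survival, was at 169.2 ± 9.18 and 1380 ± 167 CPM (3.03 ± 0.12, adjusted p = 1.39e-06). Gfi1, a zinc finger repressor of hair cells, was at 46.0 ± 5.18 and 139.5 ± 44.4 CPM (1.60 ± 0.22, adjusted p = 0.000929). All 10 listed hair cell fate genes rose at 24 h, where 11.5% of all genes rose. That list too was made with earlier results of these data known. In nonpermissive cells at 48 h 1 of 10 rose against control, Atoh1 at 46.2 ± 19.0 against 2.92 ± 0.90 CPM (adjusted p = 0.0127), a call lost without control 1, control 2 or nonpermissive 3, although these cells were sorted without Atoh1-GFP.

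The genes most like each member over the 14 RNA libraries were found by Pearson's r on log2 CPM centred within each time, among 6870 genes; libraries of 1 group share their treatment, so r describes the pattern and was not tested. For Hes1 they were Ak3 (r = 0.973), Cxcl12 (0.969) and Frmd4a (0.969). For Hes5 they were the Wnt receptor Fzd9 (r = 0.931), Rdh10, an enzyme of retinoic acid synthesis (0.920), and Lmtk2 (0.914). Hey1 was closest to Sall2 (r = 0.988), Pou3f3 (0.976) and Igfbp5 (0.976), and Hey2 to Pgap2 (0.966), Sdk1 (0.958) and Zdhhc2 (0.956). Heyl was closest to Trak1 (r = 0.961), Sdk1 (0.933) and the chemokine receptor Ackr3 (0.932), and Nrarp to Grb10 (0.965), Bcl2 (0.960) and Arhgap26 (0.954).

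Among the 6 themselves r ran from 0.537 (Hes5 with Nrarp) to 0.928 (Hes5 with Heyl), with a median of 0.835 over 15 pairs. Hes5 was the member least like the Hey1 and Hey2 pattern (r = 0.670 and 0.695), whereas Hes1 and Hey1 stood at 0.920.

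At 48 h the peak lists held 86995 to 170918 ATAC peaks and 46161 to 114533 H3K27ac peaks per library. Overlapping peaks of the 6 libraries of an assay were merged into regions. Within 100 kb of the 6 genes lay 376 of 361954 ATAC regions and 180 of 232408 H3K27ac regions. The lists hold calls and not reads per region, and differences between groups were not tested. A region is described as called in both libraries of 1 group and neither of another. Fold enrichments and q-values are the authors', and a peak is ranked only within its own list (0% is the strongest). The depth behind the lists is unknown. The lists include weak peaks: 11.1% to 37.2% of the ATAC peaks and 0.0085% to 74.7% of the H3K27ac peaks of a library have a q over 0.05, with 74.7% in permissive 2. Peak names in both nonpermissive H3K27ac lists carry the same stem, although the lists share 0.00217% of their intervals and were used as 2 replicates.

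Promoters, taken as 1 kb on each side of the start site, held an ATAC peak in 35 of 36 pairs of gene and library (97.2%), against 91.9% of such pairs over 10058 genes tested in the 48 h RNA. With a q of at most 0.05 it was 34 pairs, against 90.7%. Hey2 had the strongest promoter peaks, within the top 1.22% of every list, and Hey1 and Nrarp lay within the top 6.85% and 8.93%. Hey2 promoter peaks had fold enrichments of 9.31 and 8.26 in control, 9.57 and 12.6 in nonpermissive and 8.92 and 12.2 in permissive libraries. The Hes1 promoter ranked at 8.69% to 22.7%. These 4 promoters and that of Hes5 were called in all 6 libraries, as were the promoters of 84.6% of the 10058 genes. The RNA of Hes1, Hes5, Hey1 and Hey2 fell in permissive cells against control.

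The Hes5 promoter peak had fold enrichments of 3.12 and 2.75 in control, 2.99 and 2.87 in nonpermissive and 1.99 and 2.93 in permissive libraries, which overlapped. The permissive 1 peak had a −log10 q of 0.61, above a q of 0.05. The peak ranked at 18.1% and 19.8% in control, 23.2% and 42.8% in nonpermissive, and 92.8% and 42.1% in permissive libraries. The strongest Hes5 promoter peak was also narrower outside control: 565 and 490 bases in control, 224 and 254 bases in nonpermissive and 152 and 252 bases in permissive libraries. Nonpermissive 2 and permissive 2 each held 2 peaks within 1 kb of the start site and the other libraries 1. The widths leave out the weaker peak in those libraries. They come from lists of different length and unknown depth, and their differences between groups were not tested. The upstream TTCCCAC match printed above (chr4:154960697-154960703) lay inside an ATAC peak in both control and both nonpermissive libraries and in neither permissive one. It missed the permissive peaks narrowly, since they begin 1 and 16 bases past its end. The GTGGGAA match nearer the start site (chr4:154960840-154960846) lay inside a peak in all 6 libraries, as did the Hey2 match (chr10:30842984-30842990). For H3K27ac, the upstream Hes5 match lay inside a peak in both control libraries and in none of the other 4. The control 1 peak was weak, with a −log10 q of 1.03 (above a q of 0.05) and a rank of 79.4%. In control 2 the peak over the match was the weaker of 2 within 1 kb of the start site.

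The Heyl promoter peak ranked at 4.91% and 10.4% in control, 23.8% and 35.5% in nonpermissive and 39.7% in permissive 2; permissive 1, the shortest ATAC list, had none. Ranks come from lists of different length, so they cannot show whether a peak changed between groups.

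Promoter H3K27ac was called in 26 of 36 pairs (72.2%), against 69.4% over the same genes, and in 23 with a q of at most 0.05, against 63.6%. Both shares were close to the background. Hey1 and Nrarp had it in all 6 libraries and Hey2 in all except permissive 2. The Nrarp peak in permissive 2 was weak (−log10 q of 1.00125, above a q of 0.05). The Hey1 start site lies inside the overlapping gene LOC115489673 (chr3:8666924-8669688), so promoter peaks of these genes cannot be told apart in either assay. At Hes1, a region at chr16:30063740-30065650, which spans the start site, was called in both control libraries (−log10 q of 5.94 and 3.14) and both nonpermissive libraries (50.8 and 3.93) and in neither permissive library. The nonpermissive 2 peak of this region lay more than 1 kb from the start site. The H3K27ac lists held 114533 and 72293 peaks in permissive and 57712 and 55268 in control libraries. At a −log10 q of at least 5 they held 42205 and 2448 peaks against 5628 and 5758, so permissive 2 was then the shortest list of all 6. Heyl had promoter H3K27ac in control 2 and nonpermissive 2 and in no permissive library. Hes5 had it in both control libraries, nonpermissive 2 and permissive 2, none of those peaks ranked above 43.7% in its list, and those of control 1 and permissive 2 had a q over 0.05.

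**Figure D4:**
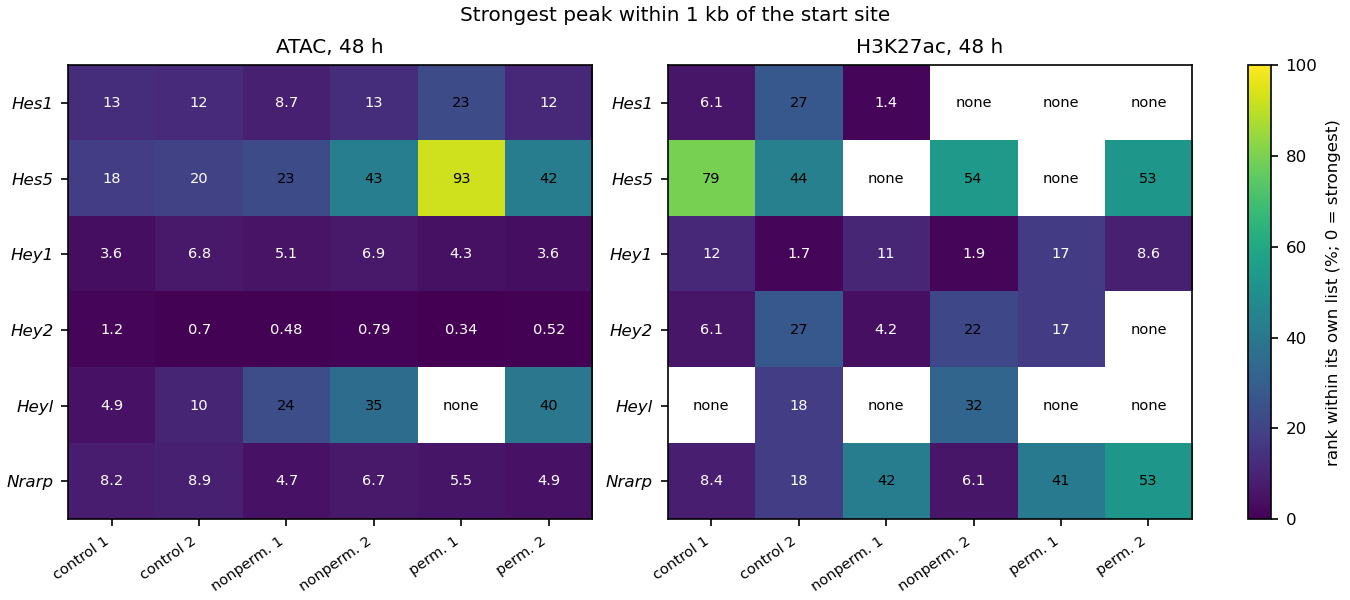
Each cell gives the within-list rank (percent, 0 is the strongest) of the best peak within 1 kb of the start site, by gene and 48 h library, for ATAC (left) and H3K27ac (right); "none" marks no peak. Hey2 stays within 1.22% in the ATAC panel, and Hes1 and Heyl lack H3K27ac peaks in both permissive libraries.

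Across the windows, 12 ATAC regions were called in both control and neither permissive library, 3.19% of the 376, against 2.44% of all ATAC regions. In the other direction 15 were called in both permissive and neither control library, 3.99% against 3.2%. For H3K27ac 10 regions went each way, 5.56% of the 180, against 1.73% genome-wide for control without permissive and 3.93% for permissive without control. With only peaks of a −log10 q of at least 5, the ATAC counts became 7 and 2 of 121 window regions (5.79% and 1.65%, against 3.76% and 3.74% of all regions) and both H3K27ac counts 0 of 63 (against 0.725% and 1.48%). In lists cut to equal length the ATAC counts were 14 and 15 of 246 (5.69% and 6.1%, against 4.43% and 4.57%) and the H3K27ac counts 8 and 4 of 129 (6.2% and 3.1%, against 3.75% and 3.81%). Regions called in all 6 libraries made up 11.4% (43) of the ATAC and 6.67% (12) of the H3K27ac regions in the windows, against 6.85% and 3.58% of all regions.

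For ATAC, 6 of the 376 regions (1.60%) were called in both control and neither nonpermissive library, against 1.37% of all regions. The other way it was 3 (0.80% against 1.14%). Between the DAPT groups, 5 were called in both nonpermissive and neither permissive library (1.33% against 2.13%) and 17 the other way (4.52% against 3.16%). For H3K27ac the 4 counts in the same order were 5, 3, 6 and 8 of the 180. Their shares were 2.78%, 1.67%, 3.33% and 4.44%, against 0.396%, 1.75%, 2.36% and 2.9% of all regions.

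The Hes1 window held 4 of the 10 H3K27ac regions called in control and not in permissive cells, of 22 regions there. Besides the promoter, they lay 2725 bases upstream (chr16:30062455-30062809), 17750 bases upstream (chr16:30047330-30047884) and 96656 bases upstream (chr16:29968297-29969105). The ATAC region over the one 17750 bases upstream, at chr16:30047390-30048107, was called in control 1 and both nonpermissive libraries and in no permissive library. Going the other way, regions around 37 kb upstream of Hes1 were called in both permissive libraries and in no control or nonpermissive library in both assays (ATAC chr16:30028094-30028563, H3K27ac chr16:30028021-30028640). They lie inside the gene 9030404E10Rik (chr16:30021842-30039479).

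Near Hes5, both assays also held regions called in both permissive and no control library. The farthest pair lay about 80 kb downstream, at chr4:155040771-155041448 for ATAC (−log10 q of 28.5 and 69.7 in permissive cells, 0.66 in nonpermissive 1) and at chr4:155040160-155041634 for H3K27ac (35.6 and 3.02). Both regions of this pair lie inside the gene Plch2 (chr4:154983115-155064091). This window also holds other genes, Pank4 among them, and no region was assigned to a target. No ATAC region within 100 kb of Hes5 or Heyl was called in both control and neither permissive library.

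Near Nrarp, a region 1962 bases upstream of the start site (chr2:25178667-25178926) was called by ATAC in both control and both nonpermissive libraries and in neither permissive one. H3K27ac at chr2:25178110-25179400, which covers it, was called in both control libraries and in none of the other 4. In permissive cells a region 55935 bases downstream was called by both assays in both libraries and in no other (ATAC chr2:25236426-25236960 with −log10 q of 12.7 and 33.3, H3K27ac chr2:25236294-25237092 with 17.7 and 1.94). In both assays this region overlaps the gene Rnf224 (chr2:25234476-25236787). Many other genes, Tubb4b and Nelfb among them, lie in this window.

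Around Hey1, an ATAC region 43388 bases upstream (chr3:8710111-8710740) was called in both control (−log10 q of 10.5 and 13.98) and both nonpermissive libraries (1.24 and 2.20) and in neither permissive library. A region near the edge of the Hey1 window, about 99.6 kb upstream (chr3:8764620-8768567), had H3K27ac within the top 0.57% of all 6 lists. Around Hey2, an ATAC region at chr10:30843629-30844027, 1045 bases upstream of the start site, was called in both control libraries (5.07 and 3.002) and in none of the other 4. Around Heyl, H3K27ac 2451 bases inside the gene (chr4:123235793-123236221) was called in both control libraries (2.84 and 3.14) and in none of the others.

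**Figure D5:**
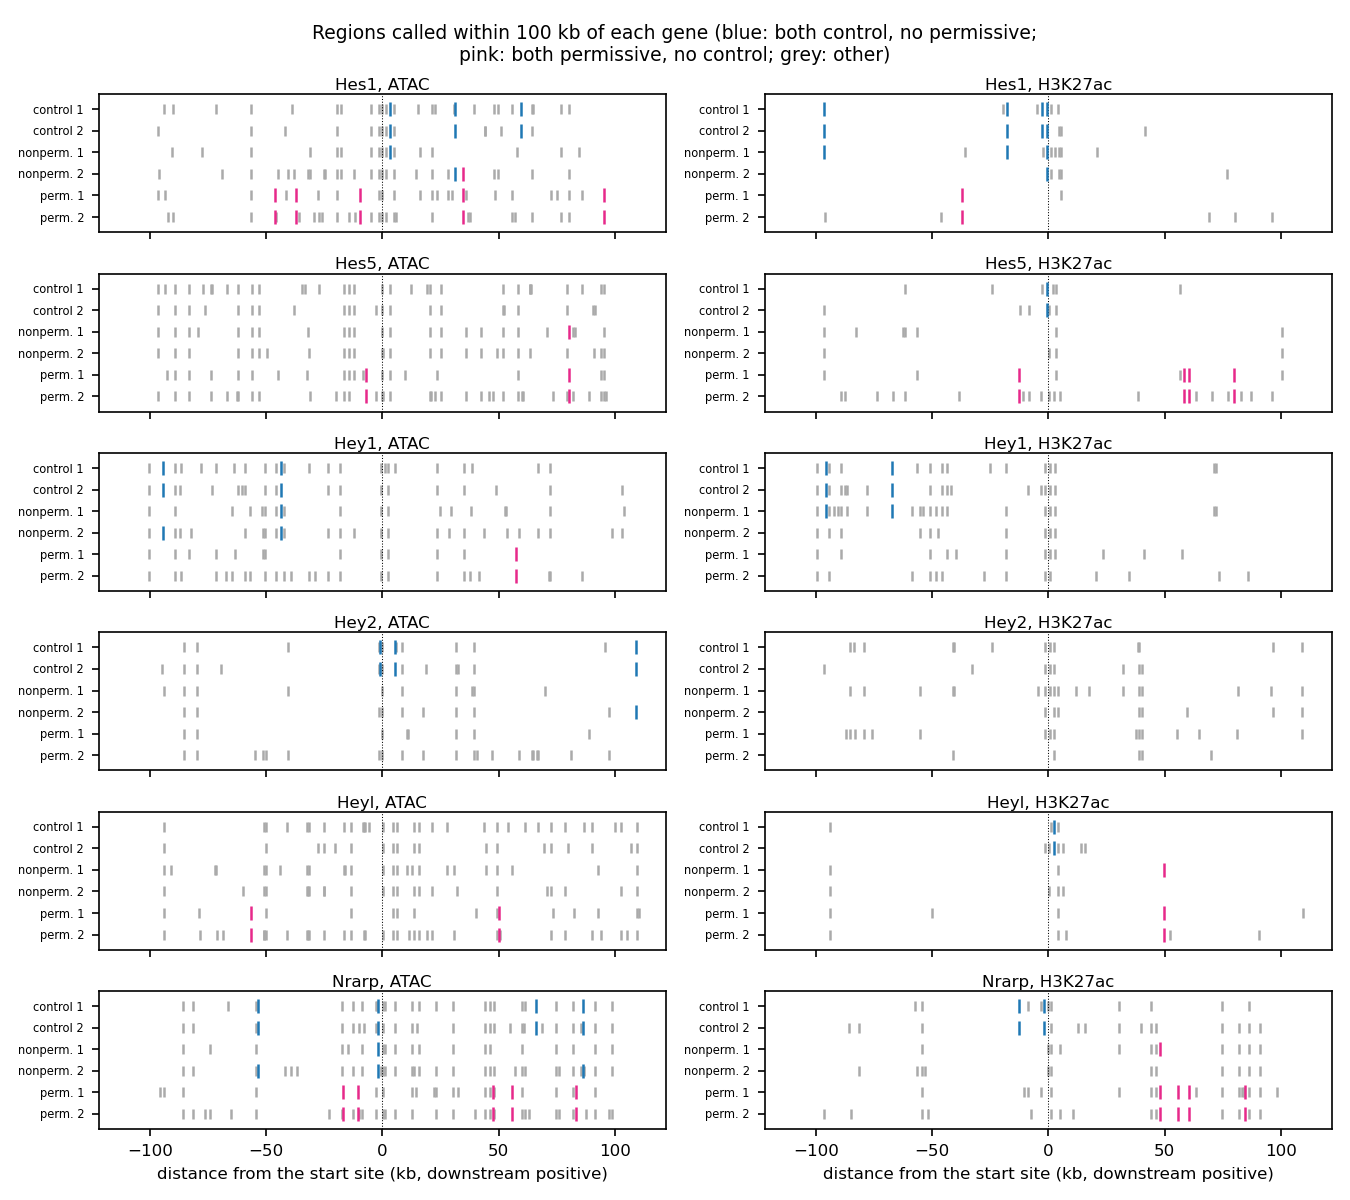
Ticks mark regions called in each 48 h library by distance from the start site (kb), for ATAC (left) and H3K27ac (right). Blue ticks are called in both control and neither permissive library, pink ticks the reverse; 12 and 15 ATAC regions and 10 and 10 H3K27ac regions are coloured.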

How the data were processed

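RNA was measured in 14 libraries and peaks in 12 (6 ATAC, 6 H3K27ac CUT&RUN) of sorted mouse cochlear cells. The authors deposited 1 RSEM gene table per RNA library, per the file headers, with expected counts (estimated reads per gene, not scaled), TPM (scaled for gene length and library) and FPKM (not used for any value here). The authors deposited 1 narrowPeak list per ATAC or H3K27ac library, with a fold enrichment and −log10 p and q per peak. STAR, RSEM, DESeq2, Bowtie2, MACS2, UMI-tools and mm10 are named in the submitters' processing notes; their versions, settings and thresholds are not given there. Sort gates and kits are per the labels' protocols.

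Gene IDs were matched to symbols for 48349 of 48709 (99.3%). Expected counts were rounded and tested with edgeR 4.0.16 (R 4.3.3) by the quasi-likelihood test after filterByExpr and TMM, in 1 fit for 24 h and 1 for the 8 libraries of 48 h, with Benjamini-Hochberg adjustment over all genes and a threshold of 0.05. The SE is the log2 fold change divided by the square root of F. CPM is on TMM-scaled library sizes, and log2 CPM for likeness and pairing used a prior count of 2 and genes of a mean log2 CPM of at least 4. The test was checked on simulated data. Peaks on standard chromosomes were merged over the 6 libraries of an assay with identical intervals collapsed, and windows reached 100 kb from each gene. Promoter shares over other genes used the first RefSeq promoter entry of each gene tested in the 48 h RNA. The strands of Hes1, Hey1 and Heyl, used to place the start site, came from general knowledge, and a promoter window at either gene end was an added alternative, chosen after seeing the data. Python 3.11.15, pandas 2.3.3, numpy 2.4.6 and matplotlib 3.10.9 were used.

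Named genes were the 6 members and the 3 genes most like each. From the other Notch pathway list, the 3 largest rises and falls in each comparison were named. The measured other Hes family genes and Atoh1, Pou4f3 and Gfi1 were also named. Other genes were named after their values were seen. The members and lists were chosen with earlier results of these data known. Alternatives were DESeq2 1.42.0, its size factors in edgeR, no filter on low counts, a replicate block, only the 2 groups compared, each library left out, stricter peaks, lists of equal length, overlap of at least 50%, a 50 kb window and a 2 kb promoter. Same-numbered permissive and nonpermissive libraries deviated together (r = 0.58, 0.15 and 0.13), a pairing read from the data and not clear, since different numbers gave r of −0.35 to 0.19, the highest above 2 of the 3 same-numbered pairs. At 24 h same-numbered libraries did not (r = 0.01, −0.05 and −0.07). Control shares only 2 numbers with each DAPT group. Control 1 went with permissive 1 (r = 0.51) and nonpermissive 1 (0.34). Control 2 went more with permissive 3 (0.38) and nonpermissive 3 (0.33) than with permissive 2 (0.20) and nonpermissive 2 (0.01). Whether libraries numbered 1 share an effect over the 48 h groups was not tested, and the main fit held no block.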

Additional observations from a re-analysis of the deposited data

How the results depend on the processing

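All 6 genes fell at 24 h under every alternative run. In permissive against control cells 5 fell (6 with the replicate block or no filter, 4 to 6 with a library left out), in nonpermissive against control 2 (3 with the block, DESeq2, no filter or only the 2 groups compared, 0 to 3 with a library left out), and in permissive against nonpermissive cells 2 (4 with the block, 3 without the filter, 1 with only the 2 groups compared, 0 to 3) with 0 rises (1 without the filter). With the block Nrarp in permissive against control was at −4.07 (edgeR adjusted p = 0.0114) and Hey1 in nonpermissive against control at −2.77 (0.0118). DESeq2 gave that Hey1 difference as −3.02 (adjusted p = 0.00167). Without the filter Nrarp passed in permissive against control (−3.37, edgeR adjusted p = 8.02e-06) and against nonpermissive cells (−2.14, 0.00516), and Hes5 passed in the latter (2.40, 0.000754). With the filter these differences were −3.39, −2.17 and 2.39, so the adjusted p moved and the sizes hardly did.

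Over all genes, nonpermissive against control gave 17 falls and 9 rises with edgeR, 77 and 78 with DESeq2, and 173 and 129 without the filter; with only the 2 groups compared 36 fell. In that comparison other Notch pathway genes that fell went from 0 to 1 (DESeq2) and 2 (no filter), and those that rose from 1 to 2 (DESeq2, no filter) and 0 (block, only the 2 groups), with 0 to 2 when a library was left out. Other Hes family rises went from 0 to 1 with DESeq2 or no filter, and hair cell fate rises from 1 to 4 with either (0 to 1 with a library left out). Other Hes family falls at 24 h went from 1 to 0 with the block (0 to 1 with a library left out). Other Notch pathway falls ranged over 5 to 8 in permissive against control and 3 to 6 against nonpermissive cells.

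Regions in the windows are given as main, −log10 q of at least 5, equal length, 50 kb window, and range with a library left out, where 1 library then stands for its group. For ATAC these were 12, 7, 14, 6 and 13 to 56 (control, not permissive), 15, 2, 15, 9 and 15 to 86 (the reverse), 6, 5, 5, 3 and 7 to 55 (control, not nonpermissive), 3, 0, 3, 3 and 3 to 46 (the reverse), 5, 3, 10, 5 and 6 to 49 (nonpermissive, not permissive), and 17, 2, 15, 9 and 18 to 84 (the reverse). For H3K27ac in the same order they were 10, 0, 8, 7 and 12 to 32, then 10, 0, 4, 4 and 12 to 48, then 5, 0, 6, 5 and 5 to 21, then 3, 2, 1, 1 and 8 to 24, then 6, 0, 7, 5 and 7 to 30, and 8, 0, 4, 2 and 8 to 44. Promoter peak pairs were 35 for ATAC in all 3 windows and 26 (28 at 2 kb, 27 at either gene end) for H3K27ac.

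Directions that turned were all of genes not called: Bhlhe41 in permissive against control (−2.28 to 1.05 with a library left out). In nonpermissive against control these were Bhlhe41 (0.25 with the block, −1.31 to 2.16 with a library left out) and, with a library left out, Nrarp (−2.13 to 1.16), Zdhhc2 (−1.90 to 0.088), Grb10 (−0.66 to 0.018), Arhgap26 (−0.99 to 0.30), Bcl2 (−0.39 to 0.85), Notch2 (−1.85 to 0.49) and Dtx4 (−0.83 to 0.24). The cause was not tested. Low counts limit the 48 h values, and the ATAC and H3K27ac lists give no depth.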
